A study of Mus musculus with 3 samples.

Results

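*Klf2*, *Klf4*, *Klf6*, *Nos3*, *Thbd*, *Edn1* and *Piezo1* are genes of the endothelial response to blood flow. They were chosen by name, as 7 of the 27,994 genes in a count table of 9,562 single cells, and all 7 were found in it. Their levels are described here across the 7 cell clusters that the authors numbered from 0 to 6, and mainly across clusters 0, 1 and 2, which hold 6,923 of the cells (72.4%) and carry the endothelial transcriptome.

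Blood moving over the vessel wall pulls on endothelial cells, and the cells read this shear stress with ion channels and junctional receptors. PIEZO1 is a cation channel opened by membrane tension. Downstream, the MEKK3–ERK5 kinase cascade activates MEF2 factors, which switch on *Klf2* and *Klf4*, a pair of zinc-finger transcription factors that keep the endothelium quiescent under steady flow. Their products favour the nitric oxide synthase gene *Nos3* and the anticoagulant receptor gene *Thbd* and hold down *Edn1*, which encodes the vasoconstrictor peptide endothelin-1. KLF6 is a relative that is better known from vascular injury.

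The cells were endothelial cells sorted from hearts of 12–16-week-old female mice that carry a GFP transgene. Part of them stayed fresh (0 h). The rest were aggregated with *Mesp1*der PSCs, the PDGFRA+ stromal cells of the E11.5 AGM of *Mesp1*-DsRed embryos, and sorted again at 24, 48, 72 and 96 h. Cells of all times were combined, and 3 such pools (A, B and C) were sequenced. Each co-aggregate joined 25,000 endothelial cells with 150,000 PSCs in medium with IL-3, SCF and Flt3L at 100 ng per ml. Tissue of several mice was pooled, no control without PSCs was analysed here, and the gates were GFP+, CD31+, VE-Cad+ and PDGFRA− at every time, with CD41, CD45 and PDGFRB also negative in the starting cells. No cell is tied to a time point or a pool in the tables, so fresh and cultured cells cannot be told apart, and no comparison of culture times was possible. The flow that a cell had seen was not recorded.

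Barcodes carry 1 of 3 library suffixes, with medians of 23,651, 13,440.5 and 38,312 UMIs (unique molecular identifiers, each a captured RNA molecule) per cell. Of 9,549 distinct barcodes, 13 occurred in more than 1 library. Median depth in clusters 0, 1 and 2 was 14,061, 7,875 and 22,493 UMIs. Endothelial identity held for all 3 of these clusters. The summed level of 8 pan-endothelial genes was 52.7, 53.4 and 38.3 UMIs per 10,000 in clusters 0, 1 and 2 and 4.26 to 6.55 in clusters 3 to 6. Cluster 0 (728 cells) was led by *Gja5* and had 6 of 7 arterial markers at their highest, so it is called arterial endothelial-like. It also had 2 of 3 endocardial markers at their highest, with a summed level of 2.97 against 0.553 and 0.400 in clusters 1 and 2. Cluster 1 (799 cells) was led by the inflammatory genes *Il1a*, *Saa3* and *Csf3* and had 5 of 6 capillary markers at their highest, and cluster 2 (5,396 cells) was led by *Aplnr*. Both keep their numbers. Of the remainder, cluster 3 was led by *Dppa5a*, cluster 4 was fibroblast or stromal-like, cluster 5 carried neutrophil and macrophage genes and cluster 6 was megakaryocyte or platelet-like.

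Because the pools cannot be traced, the cells count as 1 sample and no *P* values are given. A level is the sum of a gene's UMIs over a group of cells per 10,000 UMIs of that group. Intervals are at the 95% level and cover counting error alone, and the spread is shown by the 3 libraries. These are 3′ counts, so levels are compared between clusters for 1 gene and not between genes. A lower level in a cluster can mean fewer cells with the RNA or less RNA per cell, and for that reason shares of cells are given as well. The authors drew the clusters from the same counts, so differences between clusters are descriptions.

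Promoter windows of RefSeq (GRCm38.p6, 250 bases before to 50 after the annotated start) were given for 5 of the 7 genes and not for *Nos3* and *Thbd*. They are shown because a reader may want to see how unlike the promoters of genes with a shared stimulus are. The bases from −150 to −31 follow, 5′ to 3′ on the gene's strand, with 1 kind of match in capitals for each gene, and both kinds for *Piezo1*. Capitals mark the MEF2 site in *Klf2*, the GC box GGGCGG in *Klf4* and *Klf6*, the KLF core CACCC (read here on the opposite strand as GGGTG) in *Edn1*, and the KLF core and then the GC box in *Piezo1*.
Klf2 (chr8:72318912-72319031, plus strand): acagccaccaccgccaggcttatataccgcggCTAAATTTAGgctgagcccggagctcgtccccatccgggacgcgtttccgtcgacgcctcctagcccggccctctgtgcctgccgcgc
Klf4 (chr4:55532506-55532625, minus strand): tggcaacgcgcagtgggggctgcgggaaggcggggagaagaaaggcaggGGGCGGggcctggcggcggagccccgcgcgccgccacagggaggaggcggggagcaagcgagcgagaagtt
Klf6 (chr13:5861339-5861458, plus strand): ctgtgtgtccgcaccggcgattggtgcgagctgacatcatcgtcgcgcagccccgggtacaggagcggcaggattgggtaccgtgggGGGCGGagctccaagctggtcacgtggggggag
Edn1 (chr13:42301326-42301445, plus strand): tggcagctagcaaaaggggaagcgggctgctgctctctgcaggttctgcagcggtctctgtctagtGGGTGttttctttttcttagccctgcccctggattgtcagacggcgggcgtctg
Piezo1 (chr8:122551360-122551479, minus strand): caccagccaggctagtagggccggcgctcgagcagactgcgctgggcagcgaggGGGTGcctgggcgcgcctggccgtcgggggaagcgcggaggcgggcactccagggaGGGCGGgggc

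The whole windows of 300 bases were searched on both strands for the KLF core CACCC, for the GC box GGGCGG, for the MEF2 consensus by name and for the AP-1 site TGACTCA. The MEF2 consensus was found in *Klf2* alone of the 5, at −118 to −109, where the palindromic pattern matches both strands, and 3.19% of all 32,851 windows hold it. CACCC was found 3 times in *Edn1* and once each in *Klf2* and *Piezo1*, against 57.5% of all windows with at least 1 match. GGGCGG was found 4 times in *Klf4*, with 2 of the matches sharing a base, and in *Klf2*, *Klf6* and *Piezo1* but not in *Edn1*, against 35.7% of all windows. TGACTCA was in none of the 5 (5.20% of all windows). The *Edn1* window had 51.3% GC, near the median of 52.7% for all windows, and the other 4 had 63% to 75%. A match is a run of letters and says nothing about binding in these cells.

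**Figure D1:**
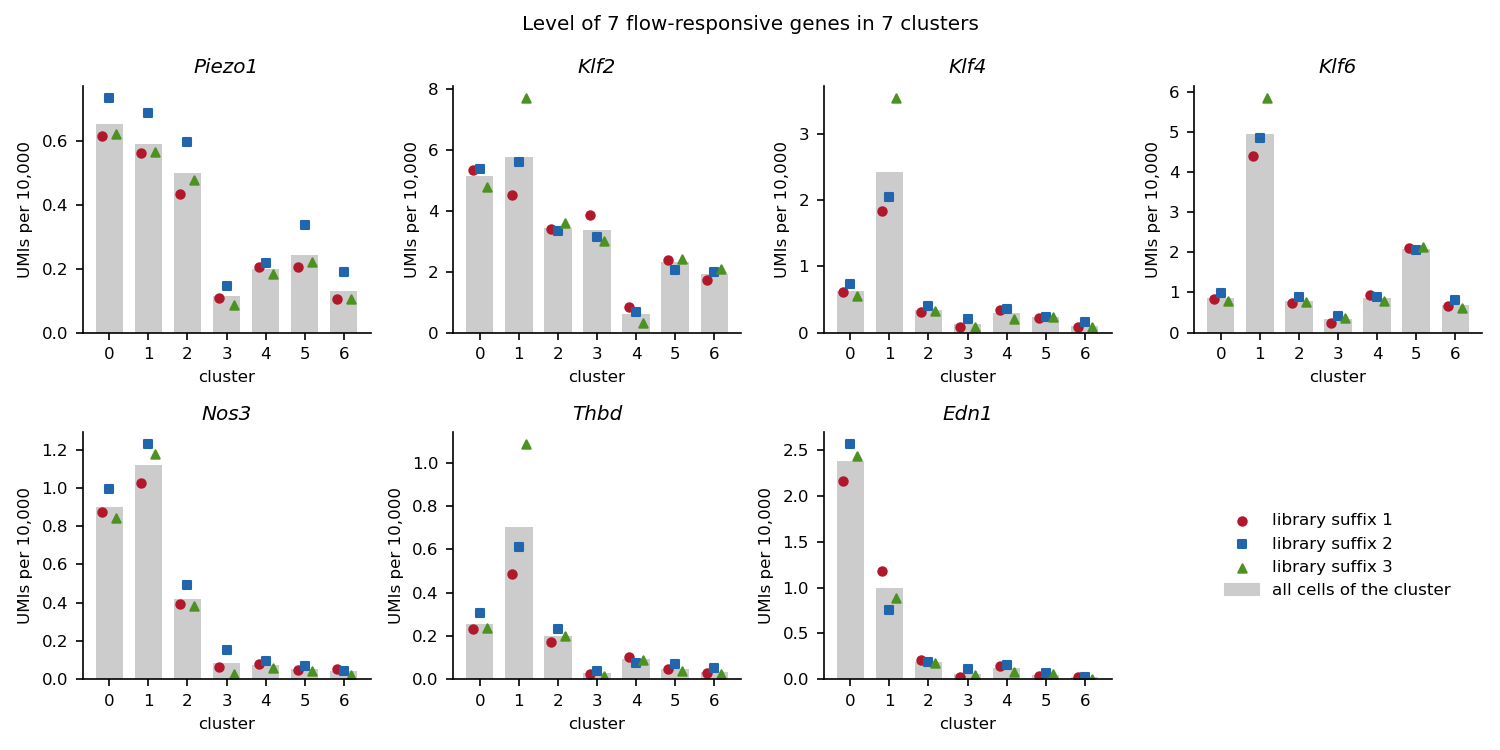
Level of the 7 genes in clusters 0 to 6, in UMIs per 10,000 on a linear axis that starts at 0, with each gene on its own scale. Grey bars are all cells of a cluster and symbols are the 3 libraries. *Klf4*, *Klf6* and *Thbd* stand highest in cluster 1 in every library, *Edn1* stands highest in cluster 0, and library suffix 3 gives the highest *Klf2*, *Klf4*, *Klf6* and *Thbd* in cluster 1.

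*Piezo1* (ENSMUSG00000014444, chromosome 8, 122,481,698–122,551,329, minus strand of GRCm38) encodes the mechanically gated channel and differed less than 2-fold between the endothelial clusters. Its level was 0.655 UMIs per 10,000 in cluster 0 (0.611 to 0.701), 0.592 in cluster 1 (0.541 to 0.646) and 0.501 in cluster 2 (0.489 to 0.512). The 3 libraries gave 0.615, 0.736 and 0.623 in cluster 0, 0.562, 0.689 and 0.567 in cluster 1 and 0.435, 0.596 and 0.479 in cluster 2. Suffix 2 was highest in each. Cluster 1 overlaps with both others, and clusters 0 and 2 do not overlap. Outside them the level was 0.115 to 0.242, in the order of clusters 5, 4, 6 and 3, where neighbours overlap between libraries.

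*Klf2* (ENSMUSG00000055148, chromosome 8, 72,319,033–72,321,656, plus strand) had its highest levels in clusters 1 and 0. In cluster 0 it stood at 5.15 UMIs per 10,000 (5.02 to 5.28), with 5.34, 5.35 and 4.77 in the libraries with suffix 1, 2 and 3. Cluster 1 had 5.76 (5.60 to 5.92) from 4.51, 5.58 and 7.70, and cluster 2 had 3.44 (3.41 to 3.47) from 3.38, 3.32 and 3.60. Clusters 0 and 1 thus overlap, and both lie above cluster 2 in every library. The level in cluster 3 was 3.36, which overlaps with cluster 2, followed by 2.31 in cluster 5, 1.91 in cluster 6 and 0.619 in cluster 4.

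*Klf4* (ENSMUSG00000003032, chromosome 4, 55,527,143–55,532,466, minus strand) peaked in cluster 1. The level there was 2.43 UMIs per 10,000 (2.32 to 2.53), from 1.84, 2.05 and 3.54 in the 3 libraries. Cluster 0 had 0.633, from 0.615, 0.739 and 0.558, and cluster 2 had 0.344, from 0.316, 0.401 and 0.321. No range of these 3 clusters touches another. Cluster 4 overlaps with cluster 2 at 0.294, cluster 5 at 0.230 overlaps with cluster 4 but not with cluster 2, and clusters 3 and 6 were lowest at 0.128 and 0.107.

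*Klf6* (ENSMUSG00000000078, chromosome 13, 5,861,482–5,870,394, plus strand) also peaked in cluster 1 and did not separate clusters 0 and 2. It stood at 4.96 UMIs per 10,000 in cluster 1 (4.81 to 5.11), from 4.40, 4.86 and 5.85. Cluster 0 had 0.857, from 0.826, 0.979 and 0.781, and cluster 2 had 0.797, from 0.736, 0.893 and 0.771. The second highest level was not endothelial but that of cluster 5, at 2.09, with 2.05 to 2.12 across libraries. Clusters 4, 0, 2 and 6 followed with overlapping ranges, and cluster 3 was lowest at 0.332.

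*Nos3* (ENSMUSG00000028978, chromosome 5, 24,364,810–24,384,474, plus strand), the source of endothelial nitric oxide, set the endothelial clusters apart from the rest. Cluster 1 had 1.12 UMIs per 10,000 (1.05 to 1.19), from 1.03, 1.23 and 1.18, and cluster 0 had 0.899 (0.847 to 0.952), from 0.874, 0.992 and 0.841. Cluster 2 had 0.418 (0.408 to 0.429), from 0.390, 0.492 and 0.381. These 3 ranges do not overlap, although clusters 0 and 1 differ by only 1.25-fold. Clusters 3 to 6 lay between 0.0399 and 0.0855. Neighbours in the order of their levels overlap, and clusters 4 and 6 do not.

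*Thbd* (ENSMUSG00000074743, chromosome 2, 148,404,466–148,408,188, minus strand) encodes thrombomodulin, which turns thrombin into an activator of protein C. Its level was 0.703 UMIs per 10,000 in cluster 1 (0.647 to 0.762), and here the libraries differed most, with 0.485, 0.609 and 1.09. Cluster 0 had 0.255, from 0.230, 0.305 and 0.236, and cluster 2 had 0.198, from 0.170, 0.230 and 0.198. Clusters 0 and 2 share the value of 0.230 at the edge of their ranges and were not separated, and cluster 1 lay above both in every library. Clusters 4, 5, 6 and 3 had 0.0912, 0.0483, 0.0344 and 0.0266.

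*Edn1* (ENSMUSG00000021367, chromosome 13, 42,301,476–42,307,990, plus strand) had the opposite maximum. The arterial endothelial-like cluster 0 stood at 2.38 UMIs per 10,000 (2.29 to 2.47), from 2.16, 2.57 and 2.44. Cluster 1 had 0.995 (0.929 to 1.06), from 1.18, 0.759 and 0.890, and cluster 2 had 0.192 (0.185 to 0.199), from 0.210, 0.185 and 0.181. The 3 clusters are ordered in the same way in every library without overlap. Cluster 4 had 0.118, clusters 3 and 5 had 0.0603 and 0.0498, and cluster 6 had 0.0176, which rests on 19 UMIs.

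Shares of cells were compared after each cell had been thinned to 5,000 UMIs, since a deeper cell shows more genes, and this left out 90 cells, 54 of them in cluster 1. *Klf2* was detected in 65.7% of cells in cluster 0 (62.1 to 69.1%), 59.5% in cluster 1 (55.8 to 63.0%) and 58.3% in cluster 2 (57.0 to 59.6%). The pooled shares of clusters 1 and 2 were thus alike although their levels differed. By library they were 51.0%, 64.2% and 68.3% in cluster 1 and 55.9%, 60.5% and 57.7% in cluster 2, a difference with both signs. *Klf6* was detected in 76.6% of cells in cluster 1 against 30.7% and 33.0% in clusters 0 and 2. *Edn1* was detected in 53.2% of cells in cluster 0 (49.5 to 56.9%) and in only 11.9% (9.70 to 14.5%) and 7.77% (7.07 to 8.52%) in clusters 1 and 2.

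*Klf4* was detected in 24.5%, 43.4% and 14.0% of cells in clusters 0, 1 and 2, *Thbd* in 12.9%, 22.3% and 10.3%, *Nos3* in 39.1%, 38.3% and 19.7%, and *Piezo1* in 30.2%, 23.5% and 23.1%. For *Thbd* in cluster 1 the libraries gave 14.7%, 23.5% and 32.6%. RNA that is free in the suspension gives some UMIs in any droplet. In the stromal-like cluster 4 at the same depth, *Nos3* was detected in 3.91% of cells, *Edn1* in 4.10%, *Thbd* in 5.27%, *Piezo1* in 9.37%, *Klf4* in 12.9%, *Klf2* in 16.2% and *Klf6* in 26.8%. *Klf4* in cluster 2 lay within the interval of cluster 4 (10.1 to 16.1%), and so did *Klf6* in cluster 0 (23.0 to 30.8%). Neither share was thus set apart from that of cluster 4. In clusters 3 and 6, *Klf4* was detected in 8.79% and 9.39% of cells and *Klf6* in 22.6% and 29.4%. Cells of cluster 4 can carry these RNAs themselves and empty droplets were not examined, so free RNA was not measured. Without thinning, above 0.5 CPTT (counts per 10,000 UMIs of the cell), the shares in clusters 0, 1 and 2 were 78.3%, 70.8% and 74.6% for *Klf2*, 33.7%, 54.1% and 22.4% for *Klf4*, 51.1%, 85.5% and 54.9% for *Klf6*, 62.0%, 52.1% and 35.4% for *Nos3*, 20.3%, 27.7% and 15.97% for *Thbd*, 70.3%, 13.6% and 11.4% for *Edn1* and 52.2%, 37.4% and 42.5% for *Piezo1*, and in cluster 4, with a median of 19,475.5 UMIs, they ranged from 6.18% for *Nos3* to 46.3% for *Klf6*.

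**Figure D2:**
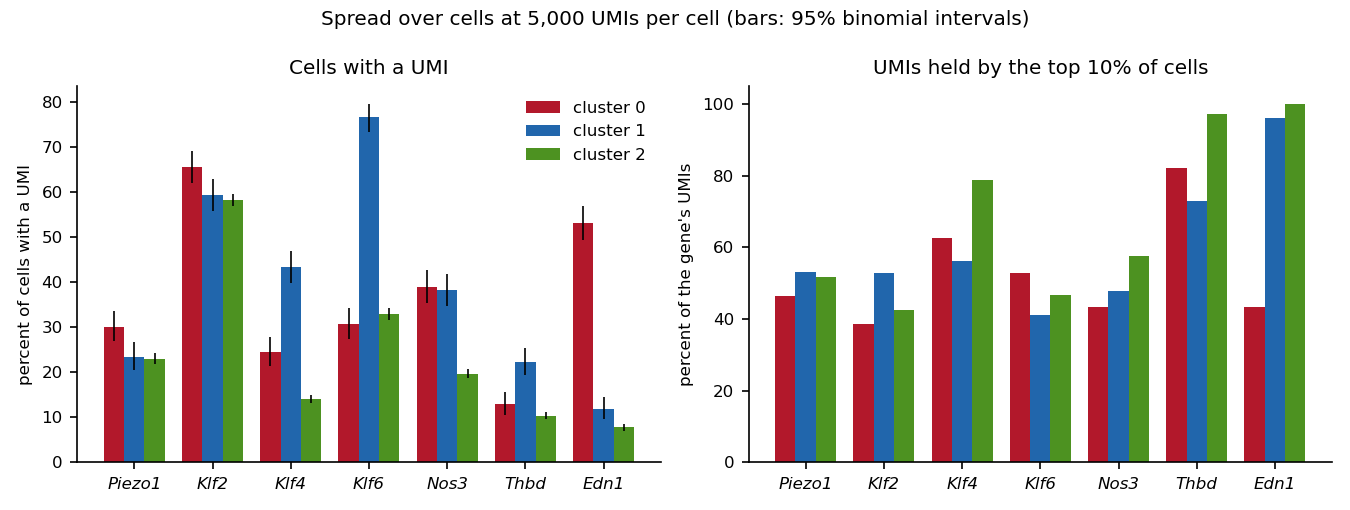
Left, percent of cells with at least 1 UMI of each gene after thinning to 5,000 UMIs per cell in clusters 0, 1 and 2, with exact binomial 95% intervals. Right, percent of the gene's UMIs that were held by the 10% of cells with most of them. *Edn1* was found in 53.2% of the cells in cluster 0 with 43.3% of its UMIs in the top 10% of cells, and in 11.9% of the cells in cluster 1 with 96.2% in the top 10%.

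The spread over cells was examined after the levels had been seen. In cluster 0 the 10% of cells with the most *Edn1* held 43.3% of its UMIs, in cluster 1 they held 96.2% and in cluster 2 they held 100%. Where only 11.9% or 7.77% of cells have a UMI at all, as in clusters 1 and 2, this share is largely set by detection. At 5,000 UMIs, 3 or more *Edn1* UMIs were found in 138 cells of cluster 0 (19.1%), 37 cells of cluster 1 (4.97%) and 46 cells of cluster 2 (0.855%). *Klf2* was less concentrated in these terms, with 38.6%, 52.9% and 42.6% of its UMIs in the top 10% of cells of clusters 0, 1 and 2, and *Klf6* had 52.7%, 41.0% and 46.8%. *Thbd* had 82.1%, 72.8% and 97.1%, which is high for any gene found in few cells.

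The 37 cells of cluster 1 with 3 or more *Edn1* UMIs came from all 3 libraries, with 16, 10 and 11 cells. Compared with the 656 cells of the cluster in which none was found, they had more *Klf2* (16.2 against 6.02 UMIs per 10,000, a log2 ratio of 1.42 with an interval of 1.24 to 1.60) and more *Klf4* (5.73 against 2.78, 1.04), both in every library. *Selp*, the P-selectin gene, stood at 3.41 against 1.14, and the capillary gene *Gpihbp1* was lower at 3.95 against 11.1. Of the endocardial markers, *Npr3* was higher in every library at 1.03 against 0.207, while *Cytl1* (0.324 against 0.390) and *Nfatc1* (0.162 against 0.180) had both signs. The summed arterial markers were alike, at 7.41 against 7.55, with *Sox17* higher (3.68 against 1.89) and *Dll4* (0.919 against 2.29) and *Efnb2* (0.811 against 1.76) lower in every library. The summed capillary markers were 54.4 against 93.5 and the venous markers 7.46 against 3.39, and *Nos3* was alike at 1.19 and 1.16. The summed mural markers were 5.84 against 1.39 but ranged from 0.182 to 21 between libraries in the cells with *Edn1*. The macrophage markers were 0.108 against 2.16, the megakaryocyte or platelet markers 0.649 against 2.31 and the erythroid markers 0 against 1.29. The part of these lists in the result was not tested. These cells are no type of their own, and the split was made after the values had been seen.

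In cluster 0 the split by *Edn1* went the other way for *Klf2*, which was 4.30 UMIs per 10,000 in cells with 3 or more *Edn1* UMIs and 5.91 in cells with none (log2 ratio −0.46, −0.65 to −0.27), and lower in every library. *Tek*, the TIE2 receptor gene, was higher with *Edn1* at 3.30 against 1.61, *Bmx* at 1.06 against 0.509 and *Vwf* at 7.72 against 5.43, while *Hey1* was lower at 1.81 against 2.70. *Klf4*, *Klf6*, *Thbd* and *Piezo1* had no common direction over the libraries. *Acta2*, a smooth muscle gene, stood at 2.75 against 1.02 with both signs among the libraries, which put the summed mural markers at 2.78 against 1.05, and its part in the *Klf2* difference was not tested. In cluster 2 the 46 cells with 3 or more *Edn1* UMIs had *Vwf* at 2.04 against 0.233, *Lyve1* at 2.13 against 0.169 and *Prox1* at 1.26 against 0.170, each higher in every library, and *Klf2* at 4.96 against 3.35. The summed lymphatic markers were 3.87 against 1.24, but of that list *Flt4* was lower in every library (0.478 against 0.881) and *Pdpn* was at 0 UMIs in these cells.

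For the comparison of clusters, log2 ratios were taken over 8,092 genes with at least 0.1 UMIs per 10,000 over clusters 0, 1 and 2, and a gene is called where the ratio is at least 2-fold and has the same direction in all 3 libraries. Between clusters 0 and 1, *Edn1* was higher in cluster 0, with a log2 ratio of 1.26 (1.15 to 1.37) and 0.87 to 1.76 across libraries. *Klf6* (log2 −2.53, −2.63 to −2.44), *Klf4* (−1.94, −2.06 to −1.82) and *Thbd* (−1.46, −1.66 to −1.26) were higher in cluster 1. Thus 1 member was called for cluster 0 and 3 for cluster 1, where 11% and 8.33% of all tested genes were called. *Nos3* was somewhat higher in cluster 1 in every library (−0.32, −0.44 to −0.19). *Klf2* had −0.16 with both signs among the libraries (0.24, −0.06 and −0.69), and *Piezo1* had 0.15 with an interval of −0.02 to 0.31. Without library suffix 3, which holds the largest *Thbd* difference, *Thbd* was not called and the *Klf2* ratio became 0.14.

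Between clusters 0 and 2, 2 members were called higher in cluster 0, against 5.94% of all tested genes (8.92% in either direction). *Edn1* was 12.4-fold higher (log2 3.63, 3.56 to 3.71) and *Nos3* 2.15-fold (1.10, 1.01 to 1.20). Positive in every library but below 2-fold were *Klf4* with 0.88, *Klf2* with 0.58, *Piezo1* with 0.39, *Thbd* with 0.36 and *Klf6* with 0.11. The opposite call, higher in cluster 2, was made for 2.98% of genes and for no member. With TMM scaling the median of all genes moved by −0.19, *Nos3* was no longer called and *Klf6* had −0.09, and with thinned cells *Klf4* was called as well.

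The most members were called between clusters 1 and 2. *Klf4* was 7.05-fold (log2 2.82, 2.74 to 2.89), *Klf6* 6.22-fold (2.64, 2.59 to 2.69), *Edn1* 5.18-fold (2.37, 2.26 to 2.49), *Thbd* 3.54-fold (1.82, 1.69 to 1.95) and *Nos3* 2.67-fold higher (1.42, 1.32 to 1.52). These 5 were called, against 12.4% of all tested genes for cluster 1 and 11.6% for cluster 2, which had no member. *Klf2* was higher in every library, with 0.74, and so was *Piezo1*, with 0.24, which turned to −0.05 with TMM scaling. Cells of cluster 1 had the lowest depth of all clusters, and with every cell at 5,000 UMIs the same 5 members and *Klf2* were called.

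**Figure D3:**
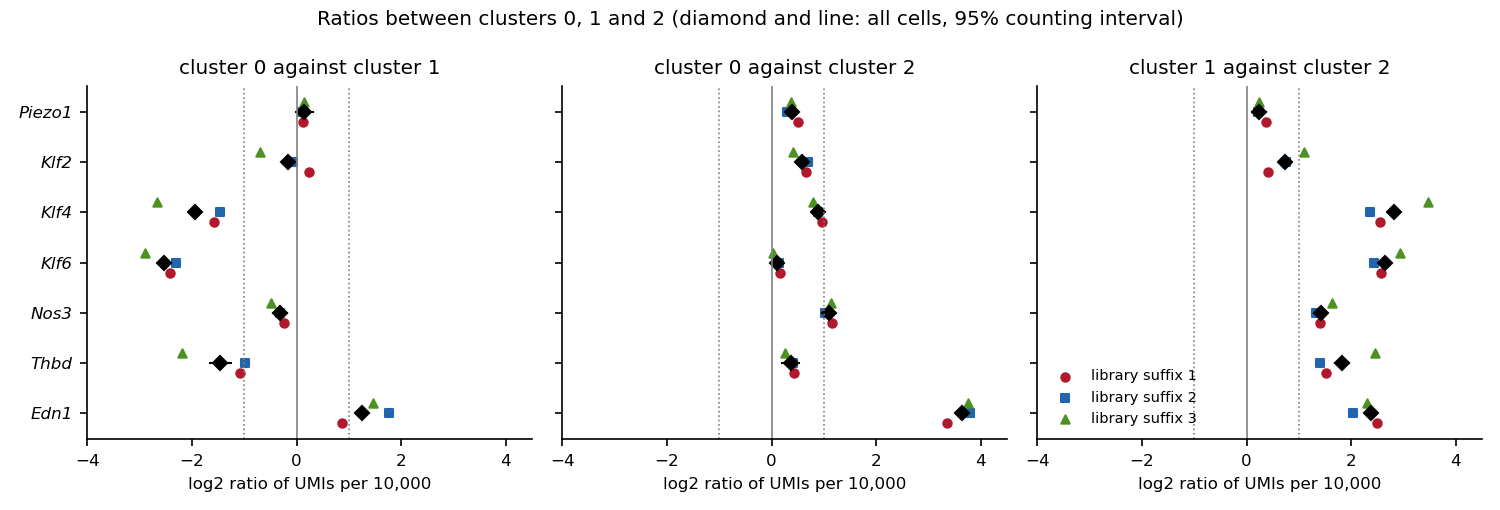
Log2 ratio of UMIs per 10,000 for each gene between clusters 0 and 1, 0 and 2, and 1 and 2. Diamonds with lines are all cells with the 95% counting interval, coloured symbols the 3 libraries, and dotted lines a 2-fold difference. *Edn1* lies to the right of 0 in all 3 panels and *Klf4* and *Klf6* lie far to the left in the first and to the right in the third.

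Cluster 1 also stood apart in other genes that move with these results. Its summed level of 5 macrophage markers was 3.12 UMIs per 10,000 (0.744 to 4.41 across libraries) against 0.0890 and 0.0766 in clusters 0 and 2, and 15.6% of its cells had a UMI of *Ptprc*, *C1qa*, *C1qb*, *Csf1r* or *Adgre1* against 8.38% and 10.2%. The summed erythroid markers were 1.79 (0.177 to 5.66) against 0.675 (0.0301 to 2.11) and 0.101 (0.0247 to 0.181), with overlapping ranges. The fibroblast or stromal markers were 2.57 in cluster 1 against 0.310 and 0.159 in clusters 0 and 2. The megakaryocyte or platelet markers were 1.92 against 0.261 and 0.231, and for both lists the range of cluster 1 lay above the others. When the cells with those leukocyte UMIs were left out, an alternative chosen after the data were seen, the same members were called in all 3 comparisons, and *Klf4* in cluster 0 against cluster 1 had −2.18. Of 17 immediate early genes, 14 were tested and 13 were higher in cluster 1 than in cluster 0, with a median log2 ratio of −3.12 against 0.07 for all genes, and the same number was higher than in cluster 2. *Fos* stood at 0.567, 5.53 and 0.403 UMIs per 10,000 in clusters 0, 1 and 2, *Egr1* at 0.136, 3.1003 and 0.129 and *Jun* at 2.65, 9.96 and 2.09. These genes respond within minutes to stress and to tissue handling. Their part in the levels of *Klf2*, *Klf4* and *Klf6* was not tested.

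Against the other clusters, the cells of clusters 0, 1 and 2 were pooled and compared over 8,317 genes. UMIs were summed, and cluster 2 holds most of them, with 140,516,887 against 12,586,923 and 8,412,051 in clusters 0 and 1. The pooled values therefore mostly reflect cluster 2. Compared with cluster 3, 6 members were called higher (25.7% of all tested genes, 32.5% in either direction), namely all but *Klf2*, whose ratio was 0.14 with both signs among libraries. Compared with cluster 4, 5 were called (8.68%): *Nos3* with a log2 ratio of 2.73, *Klf2* with 2.58, *Edn1* with 1.77, *Piezo1* with 1.37 and *Thbd* with 1.33. *Klf4* had 0.69 and *Klf6* 0.24, and *Klf4* was called with the mean of the cells' CPTT, with thinned cells and with TMM factors. In cluster 2 alone, *Edn1* was 1.62-fold above cluster 4, at 0.192 against 0.118 UMIs per 10,000. The call of no member was in the direction of cluster 3 (6.79% of genes) or cluster 4 (4.99%).

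Compared with cluster 5, *Nos3* (3.24), *Edn1* (3.02), *Thbd* (2.25), *Piezo1* (1.09) and *Klf4* (1.05) were called higher in clusters 0, 1 and 2 (16.5% of all tested genes) and *Klf6* was called higher in cluster 5 (−1.04, −1.07 to −1.01), where 6.54% of genes were. The *Klf6* call does not hold for each endothelial cluster, since cluster 1 had 4.96 UMIs per 10,000 and cluster 5 had 2.09. *Klf4* had 0.344 in cluster 2 alone and 0.230 in cluster 5. *Klf6* was below 2-fold with the mean of the cells' CPTT and with thinned cells. *Klf4* was not called with TMM or median-of-ratios factors, and *Piezo1* was not called with the latter. Compared with cluster 6, *Edn1* (4.52), *Nos3* (3.62), *Thbd* (2.74), *Klf4* (2.15) and *Piezo1* (1.98) were called (18.8%, and 26% in either direction), *Klf2* had 0.95 and *Klf6* 0.55, and no member was higher in cluster 6 (7.23%). *Nos3*, *Thbd*, *Edn1* and *Piezo1* were called in all 4 of these comparisons, *Klf4* in 3, *Klf6* in 1 and, in the other direction, in 1, and *Klf2* in 1.

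Within a cluster, cells were divided by their own *Klf2* count at 5,000 UMIs into classes with 0, 1 to 2, and 3 or more UMIs, which cut 1 measure into ranges and name no type. Cluster 0 had 248, 196 and 278 such cells, cluster 1 had 302, 198 and 245, and cluster 2 had 2,242, 1,811 and 1,324. *Klf4* was higher with more *Klf2* in all 3 clusters. Its level went from 0.194 over 0.357 to 1.58 UMIs per 10,000 in cluster 0, from 0.695 over 1.49 to 6.96 in cluster 1 and from 0.135 over 0.295 to 0.897 in cluster 2, with log2 ratios of 3.03, 3.32 and 2.74 between the outer classes. The libraries with suffix 1, 2 and 3 gave 0.167, 0.178 and 0.258 without *Klf2* and 1.32, 1.81 and 1.63 with 3 or more in cluster 0, so the classes did not overlap.

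*Thbd* followed *Klf2* too, with 0.161, 0.286 and 0.460 UMIs per 10,000 in the 3 classes of cluster 0, 0.278, 0.384 and 2.08 in cluster 1 and 0.163, 0.224 and 0.361 in cluster 2 (log2 ratios of 1.51, 2.90 and 1.15). In cluster 1 the cells with 3 or more *Klf2* UMIs had 1.37, 1.76 and 2.87 in the 3 libraries against 0.193, 0.438 and 0.333 without *Klf2*. *Klf6* differed less, from 0.468 to 1.17 in cluster 0, 3.88 to 7.31 in cluster 1 and 0.690 to 1.17 in cluster 2 (1.33, 0.91 and 0.76). *Nos3* had log2 ratios of 0.56, 0.34 and 0.41, positive in every library, and *Piezo1* had 0.01, 0.34 (−0.13 to 0.81) and 0.01.

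*Edn1* had no common direction. With more *Klf2* it was lower in cluster 0, at 3.03, 2.64 and 2.19 UMIs per 10,000 in the 3 classes and lower in every library, and higher in cluster 2, at 0.193, 0.234 and 0.304 and higher in every library. In cluster 1 it was 1.38, 0.293 and 1.07, with both signs among the libraries. Of the 6 other members, 3, 2 and 2 were called at least 2-fold higher in the top class of clusters 0, 1 and 2. Of all genes with at least 0.1 UMIs per 10,000 in the thinned cells of the cluster, 1.41%, 5.37% and 0.299% were called. No member was called 2-fold lower (0.797%, 2.36% and 0.0623% of genes). Without a minimum size, 4, 5 and 5 of the 6 were higher in every library, as were 16.5%, 21.7% and 19.9% of all genes. Another random thinning gave *Klf6* 0.84, below 2-fold, and *Nos3* 1.01 in cluster 0. Median depth before thinning differed little between the classes, with 14,953.5, 15,122.5 and 13,108 UMIs in cluster 0 and 22,871, 21,487 and 22,915.5 in cluster 2. It was 8,488, 9,193.5 and 7,352 in cluster 1.

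**Figure D4:**
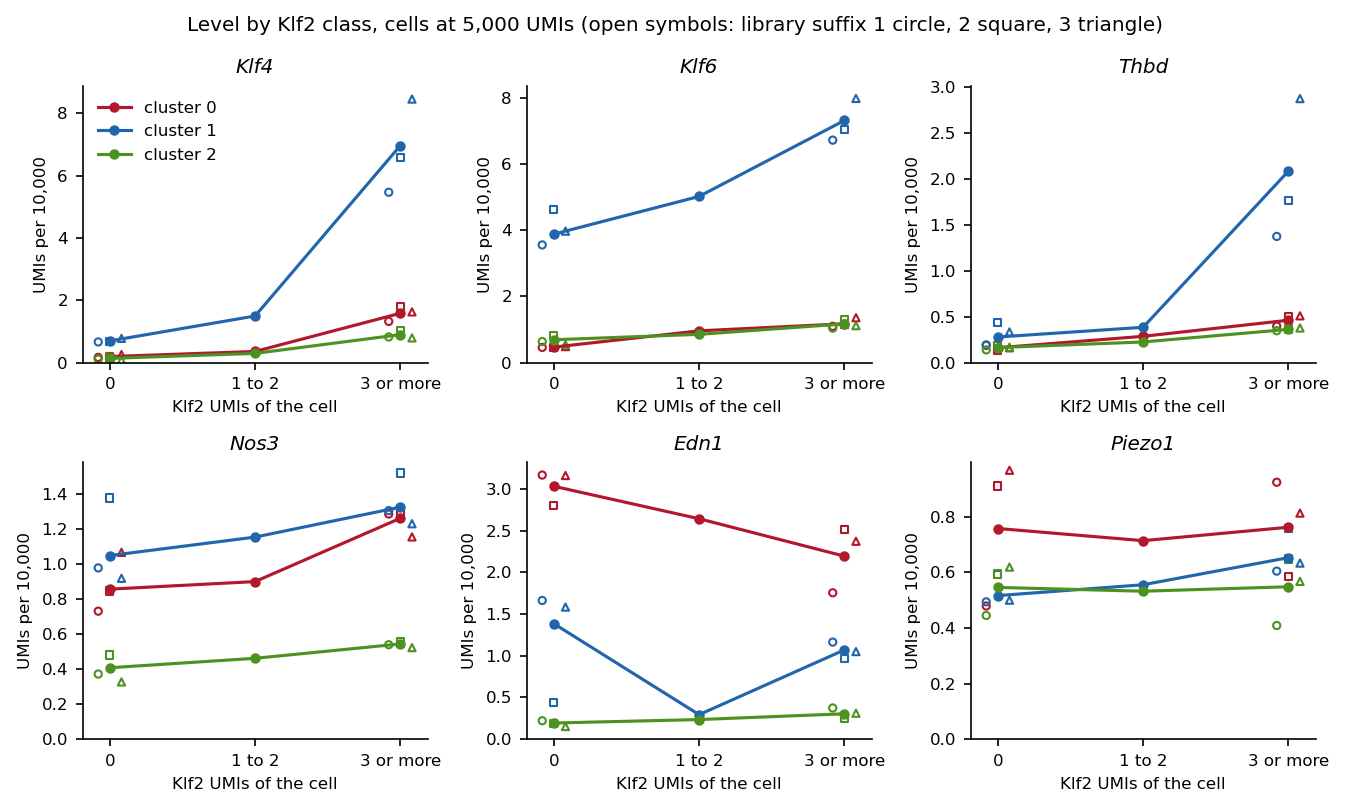
Level of the other 6 members, in UMIs per 10,000 on axes that start at 0, in cells with 0, 1 to 2, and 3 or more *Klf2* UMIs at 5,000 UMIs per cell. Filled points joined by lines are all cells of clusters 0, 1 and 2, and open symbols are the 3 libraries in the outer classes. *Klf4* and *Thbd* climb most in cluster 1, to 6.96 and 2.08, and *Edn1* falls in cluster 0 from 3.03 to 2.19.

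Other genes also moved with *Klf2* inside the clusters. Of the immediate early genes with at least 30 UMIs, 3 of 14 in cluster 0, 8 of 17 in cluster 1 and 4 of 16 in cluster 2 were called at least 2-fold higher in the top *Klf2* class. In cluster 1, *Fos* went from 3.59 to 10.7 UMIs per 10,000, *Jun* from 7.12 to 20.3 and *Hspa1a*, a heat shock gene, from 0.470 to 5.97. Of the genes known to be induced by laminar flow or KLF2, 3 of 10 were called in cluster 1, among them *Aqp1*, a water channel gene, from 1.52 to 5.92 and *Slc9a3r2*, an adaptor of membrane transporters, from 2.08 to 7.68. None of 9 was called in cluster 0 and 1 of 9, *Aqp1*, in cluster 2. *Cav1*, the caveolin of endothelial caveolae, went from 2.05 to 6.38 and *Klf9* from 0.815 to 2.24 in cluster 1. Of 9 genes known to be repressed by laminar flow or KLF2, 1 was called higher in the top class of cluster 1 and 0 lower. The called gene was *Ace*, from 0.0728 to 0.441. Without a minimum size, 2 of the 9 were higher and 3 lower in every library. Among the latter, *Ccl2*, a monocyte attractant, had 12.9 without and 6.996 with 3 or more *Klf2* UMIs, which is below 2-fold. The part of the immediate early and heat shock genes in the values of the members was not tested.

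Markers of other cells moved with *Klf2* as well. In cluster 1 the summed erythroid markers were 0.0199 UMIs per 10,000 without *Klf2* and 9.62 with 3 or more *Klf2* UMIs (0.634 to 26.3 across libraries), and the fibroblast or stromal markers were 1.05 and 3.98 (2.55 to 5.30), both higher in every library. The mural markers were 1.05 and 3.85, with both signs among the libraries, and the macrophage markers were 2.98 and 0.498, lower in every library. The capillary markers were 78.1 and 124.6 and higher in every library. In cluster 0 the mural markers were lower in the top class in every library, at 2.61 and 1.11, with *Acta2* at 2.52 and 1.06. The erythroid markers there were also lower in every library, at 0.0806 and 0.0576. Higher in every library were the fibroblast or stromal markers, at 0.169 and 0.439, and the megakaryocyte or platelet markers, at 0.242 and 0.381. In cluster 2 these lists of other cells had no common direction over the libraries. Without the cells with a UMI of *Ptprc*, *C1qa*, *C1qb*, *Csf1r* or *Adgre1* (61, 124 and 551 cells of clusters 0, 1 and 2), *Klf4* had log2 ratios of 2.94, 3.25 and 2.78 and *Thbd* 1.48, 2.70 and 1.14 between the outer classes. Without the cells with a UMI of *Hba-a1*, *Hbb-bt*, *Dcn*, *Rgs5* or *Acta2* (260, 176 and 577 cells), *Klf4* had 2.62, 3.23 and 2.87, *Thbd* had 1.48, 3.01 and 1.04, and *Klf6* in cluster 1 was also called, at 1.05. Both alternatives were chosen after the data were seen.

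Lists of other genes of the pathway were compared by counts and medians beside the median of all tested genes, which was 0.07, 0.04 and −0.03 (log2) for cluster 0 against 1, cluster 0 against 2 and cluster 1 against 2. Of 15 shear sensors 12 were tested. Cluster 1 had 2 of them higher than cluster 0, *S1pr1* (3.30 against 1.08 UMIs per 10,000), the sphingosine-1-phosphate receptor gene, and *Cav1* (3.01 against 1.15). In both clusters 4 sensors were higher than in cluster 2 (median log2 ratios of 0.61 and 0.82) and 1 was lower, *Piezo2*, with 0.195, 0.248 and 0.939 in clusters 0, 1 and 2. The paralogue of *Piezo1* was thus called higher in cluster 2, where *Piezo1* was not.

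The 11 genes of the MEKK3–ERK5–MEF2 and CCM pathway, which lies upstream of *Klf2*, were all tested. Their medians were −0.23, 0.38 and 0.34 in the 3 comparisons. Of them, 1 was called for cluster 1 against cluster 0, 1 for cluster 0 against cluster 2 and 3 for cluster 1 against cluster 2. In these directions 8.33%, 5.94% and 12.4% of all tested genes were called, and 0 of the 11 were called in the opposite ones. *Heg1*, the receptor that anchors the CCM complex, stood at 1.09, 1.28 and 0.423 UMIs per 10,000. *Mef2c* had 1.51, 2.01 and 2.39 and was higher still outside the endothelial clusters, at 3.45 in cluster 5 and 4.07 in cluster 6. Of the 14 other *Klf* genes, 6 were tested. *Klf9* was called higher in cluster 1 than in both others, with 0.0731, 1.10 and 0.0610 in clusters 0, 1 and 2, as was *Klf7*, with 1.23, 2.51 and 1.14, and *Klf3* was called higher in cluster 0 than in cluster 2, at 1.503 against 0.742.

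Genes induced and genes repressed by laminar flow did not part in the comparisons with cluster 1. Of 9 induced genes tested, 5 were called higher in cluster 1 than in cluster 0 and 1 lower (median −1.25), and of 5 repressed genes all 5 were higher in cluster 1 (median −4.73). Against cluster 2, cluster 1 had 7 induced genes (median 1.66) and all 5 repressed genes higher (4.35). *Hmox1*, the haem oxygenase gene, stood at 0.443, 10.98 and 0.505 UMIs per 10,000 in clusters 0, 1 and 2 and *Aqp1* at 0.454, 2.50 and 0.0903. Among repressed genes, *Ccl2* had 0.0286, 11.6 and 0.0241. In cluster 0, *Smad6* and *Smad7*, inhibitors of BMP and TGF-β signals, were highest, at 1.33 and 2.06 against 0.0929 and 0.382 in cluster 2. Against cluster 2, cluster 0 had 5 of the 9 induced genes called higher and 0 lower (median 1.06). Of the 5 repressed genes, 1 was called higher and 1 lower (median −0.007).

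Beside *Nos3*, 9 of 14 genes of the nitric oxide pathway were tested. *Ddah1*, which degrades an inhibitor of nitric oxide synthase, had 1.59, 0.257 and 0.669 UMIs per 10,000 in clusters 0, 1 and 2, and *Gch1*, which makes the cofactor of the enzyme, had 0.118, 0.667 and 0.0964. *Nostrin*, whose product removes the enzyme from the membrane, had 0.0461, 0.518 and 0.227. Cluster 0 against cluster 1 thus had 1 gene higher and 4 lower (median −0.80), cluster 0 against cluster 2 had 2 and 1 (0.13) and cluster 1 against cluster 2 had 3 and 1 (0.46).

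In the endothelin pathway, 3 of 6 genes were tested. *Ece1*, which cleaves the endothelin precursor, had 1.92, 2.36 and 0.936 UMIs per 10,000 and *Ednrb*, an endothelin receptor gene, 0.253, 5.61 and 0.338. The ligand gene *Edn1* and the receptor gene *Ednrb* therefore had their highest levels in different clusters. Their medians were −0.30, −0.40 and 1.33, with 1 gene called for cluster 1 against 0, 1 for cluster 0 against 2 and 2 for cluster 1 against 2. Of 9 genes of coagulation control, 7 were tested. *Procr*, the receptor that presents protein C to the thrombin–thrombomodulin complex, had 1.16, 2.23 and 0.188 and *Plat*, the tissue plasminogen activator gene, had 0.348, 3.01 and 0.0919, with the same order of clusters as *Thbd*. *Vwf* was highest in cluster 0, at 5.21, 0.817 and 0.216, and *F2r*, the thrombin receptor gene, at 2.08, 0.679 and 1.17. The counts were 2 and 3 for cluster 0 against cluster 1 (median −0.94), 4 and 0 for cluster 0 against cluster 2 (1.13) and 5 and 1 for cluster 1 against cluster 2 (1.92).

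Against clusters 3, 4, 5 and 6, 10, 9, 11 and 11 of 13 tested shear sensors were called higher in clusters 0, 1 and 2, with medians of 2.40, 2.21, 2.59 and 2.31 where all genes had 0.22, −0.05, 0.08 and 0.14. Of all tested genes, 25.7%, 8.68%, 16.5% and 18.8% were called higher and 6.79%, 4.99%, 6.54% and 7.23% lower. Of 11 genes of the MEKK3–ERK5–MEF2 and CCM pathway, 4, 3, 2 and 3 were called higher, with medians of 0.80, 0.59, 0.36 and 0.24. Against cluster 6, 1 of them was lower. Of 9 genes induced by laminar flow, 7, 5, 7 and 8 were called higher, with medians of 2.21, 1.06, 2.32 and 2.48. Immediate early genes gave 8, 1, 0 and 2 of 14 higher in clusters 0, 1 and 2 and 0, 4, 6 and 4 lower.

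Likeness was measured as Pearson's correlation of log2(UMIs per 10,000 + 0.1) over the 21 groups of 7 clusters and 3 libraries, which share libraries and depth, among 5,958 genes with at least 0.5 UMIs per 10,000 in 1 group. It is a description. *Nos3* was most like *Cdh5*, the VE-cadherin gene used in the sort, at 0.99, followed by *Adcy4*, *Eng*, *Ptprm* and *Mmrn2*. *Edn1* was most like *Mall* (0.98), *Sema3g*, *Vegfc*, *AU021092* and *Epas1*. *Klf4* was most like *Nfkbia* (0.98), *2900026A02Rik*, *Cast*, *Pde4b* and *Csf1*, and *Klf6* most like *Plin2* (0.97), *Neu1*, *Nr3c1*, *Trim30a* and *B2m*.

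*Thbd* was most like *Lysmd2* (0.97), *Ndel1*, *Cav2*, *Podxl* and *Galnt18*, and *Piezo1* most like *Cpd* (0.98), *Slco3a1*, *Hdac7*, *Elk3* and *Arap3*. *Klf2* had no close match, with *Trim25* first at 0.86, then *Swap70*, *Zfp979*, *Rgl2* and *Fam3c*. Among the members, *Klf4* and *Thbd* were most alike, at 0.97 over all groups and 0.98 over the 9 groups of clusters 0, 1 and 2. *Klf4* and *Klf6* had 0.79 and 0.96, *Klf2* and *Klf6* 0.29 and 0.64, and *Klf6* and *Edn1* 0.38 and 0.13. Over the 9 groups, 0 of the first 5 genes of any member remained among its first 5.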

How the data were processed

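Libraries of 3 endothelial pools (10x Genomics 3′ v3) were sequenced. The authors used Cell Ranger 3.1.0 on mm10 (GRCm38), with aggregation and batch-effect removal, and Seurat 3.1.5 is named in the submitters' processing notes. They deposited UMI counts per gene and cell. The deposited natural log values (log of 1 plus counts per 10,000) were recomputed to within 6.2e-15. The third deposited table holds UMAP coordinates, a score without unit that was not used, and Leiden clusters. The gene annotation of the counts is not given in the sources used here. Identifiers were named from a table of Ensembl symbols (27,645 of 27,998 matched, 27,994 genes after equal names were summed), and gene positions are of GENCODE M21. The stated minimum of 5,000 UMIs leaves 9,472 of the 9,562 deposited cells, and the lowest has 4,393.

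The members and lists were chosen with earlier results of these data known. Named genes are the 7 members, examples from fixed lists with the largest ratios among called genes, and the 5 genes most like each member. Uncalled examples such as *Mef2c*, others with smaller ratios, and those in the splits by *Klf2* and *Edn1* were picked after their values were seen. Library suffixes are tied to no pool, so all cells are 1 sample, no test was run and values per library show the spread. Levels carry exact Poisson, shares Clopper–Pearson and ratios exact conditional binomial intervals (95%). Thinning drew 5,000 UMIs per cell (seed 1). The authors kept singlets, so no doublet caller was run, and cells with UMIs of other lineages were left out in alternatives. The calls and intervals of the cluster comparisons were tested on simulated Poisson counts, which had no spread between libraries beyond counting error. R 4.3.3 with edgeR 4.0.16 gave TMM factors only, and the rest was done in Python 3.11.15 with scipy 1.17.1, pandas 2.3.3, numpy 2.4.6 and matplotlib 3.10.9. Values of 1 listed gene are not reported here on their own.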

Additional observations from a re-analysis of the deposited data

How the results depend on the processing

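With a minimum of 1 UMI per 10,000, 0 members were called for cluster 0 and 1 for cluster 1 in that pair, 0 for cluster 0 against cluster 2, 1 for cluster 1 against cluster 2, and 1, 1, 0 and 0 for clusters 0, 1 and 2 against clusters 3, 4, 5 and 6, because most members lie below that level. With a 4-fold threshold 0 members were called for cluster 0 and 1 for cluster 1 in that pair, 1 for cluster 0 against cluster 2 and 3 for cluster 1 against cluster 2. Clusters 0, 1 and 2 then had 2 members against cluster 4 and 3 against cluster 5, which had 0. TMM factors left 1 member for cluster 0 against cluster 2 and 4 against cluster 5, and median-of-ratios factors left 3 against cluster 5. With the mean of the cells' CPTT or with thinned cells, 0 members were higher in cluster 5. Leaving out 1 library in turn gave 2 to 3 members higher in cluster 1 than in cluster 0 and 4 to 5 members with their highest level in cluster 1 against 2 to 3 in cluster 0, and the library was suffix 3. Without suffix 2, *Nos3* and *Edn1* against cluster 3 had 3.27 and 3.64. No called member changed sign.

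The calls over all genes moved with the scaling. Of the genes called between clusters 0 and 2, 66.6% were higher in cluster 0, 43.2% with TMM and 55.6% with median-of-ratios factors. Between clusters 1 and 2, 51.6% were higher in cluster 1 and 31.0% with TMM, and against cluster 4, 63.5% were higher in clusters 0, 1 and 2, 80.8% with TMM and 74.4% with median-of-ratios factors. TMM moved the median of all genes by −0.19 (cluster 0 against 2), −0.29 (1 against 2) and 0.34 (against 4), and median-of-ratios factors by −0.11 (1 against 2), −0.16, 0.20, −0.12 and −0.16 (against 3, 4, 5 and 6). Over all settings, 172 to 1,988 genes were called higher in cluster 0 and 80 to 2,412 in cluster 1 (894 and 674 as reported), 55 to 1,993 in cluster 0 and 44 to 833 in cluster 2 (481 and 241), and 108 to 3,284 in cluster 1 and 243 to 1,855 in cluster 2 (1,004 and 942). The cause was not tested.

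Thinning with another seed moved 3 of 18 ratios between *Klf2* classes, all in cluster 0, by more than the spread over libraries, with *Klf6* at 0.84, *Nos3* at 1.01 and *Thbd* at 1.96. Leaving out cells by 5 leukocyte genes or by 5 erythroid, stromal and mural genes moved 3 of 36 such ratios by more than that spread, namely *Piezo1* in cluster 1 (0.50 and 0.43) and *Klf4* in cluster 0 (2.62). Clusters and classes were also compared within each library, which is a paired description. Values within each library are given, and a test over the 3 libraries was not run.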
